A study of Mus musculus with 4 samples.

Results

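The genes described here are 10 core proteins of matrix and cell surface proteoglycans, taken by their gene symbols: Dcn, Bgn, Lum, Fmod, Vcan, Hspg2, Gpc1, Sdc1, Sdc2 and Sdc4. All 10 had a row in the count table, which held 39056 genes, and 8 of them reached 1 CPM (the depth-normalised read count, on a scaled library total) in at least 1 library, as did 11803 genes of the table. Such genes are called measured below, and the 2 that were not are Lum and Fmod. The study sequenced oligo-dT-selected RNA from cells of mouse lung in 4 libraries, 1 for each label: no LPS, 8 h LPS, 16 h LPS and 20 h LPS, with lipopolysaccharide (LPS, the endotoxin of Gram-negative bacteria) given at 10 mg/kg into the peritoneum. All 4 came from reporter mice in which green fluorescent protein marks expression of S1PR1, a receptor for sphingosine-1-phosphate, and flow sorting kept cells with the reporter and CD31 but without CD45. The labels give no age, sex or number of animals behind a library, and the hours can be read as times after 1 injection or as times of injection.

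A proteoglycan is a core protein that carries long sulfated sugar chains, the glycosaminoglycans. Perlecan and versican fill basement membranes and the loose matrix, small leucine-rich proteoglycans such as decorin lie along collagen fibrils, and syndecans and glypicans hold heparan sulfate at the cell surface, where it binds growth factors, chemokines and matrix proteins. On endothelium these molecules are part of the glycocalyx, the surface coat that is known to be shed during endotoxin exposure.

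The libraries held 27566454 to 28905776 reads, and the floor used for a gene with 0 reads, 3 reads, was 0.104 to 0.108 CPM. The markers of the sorted cells went against the labels: of 15 endothelial genes 2 were measured, Erg, Emcn, Cldn5 and Sox17 had 0 reads in all 4 libraries, and Pecam1, which encodes CD31, had 7 reads in the no LPS library and 2, 2 and 1 in those of 8, 16 and 20 h. Cdh5 had at most 9 reads, Kdr at most 12, Epcam at most 3 and Ptprc between 31 and 42, and S1pr1 had 27, 87, 79 and 29 reads. Each label is therefore used below only as the name of a column, and the cells are given no other name. Over measured genes the squared difference between 2 libraries, divided by what counting error gives, averaged 1.63 between 16 h and 8 h, 7.36 between 20 h and no LPS, and 74.0 to 79.6 for the other 4 pairs. With 1 library per label no difference has a replicate check, and every interval below covers counting error only. A gene is called higher or lower by a rule of size and not by a test: a fold of 2 or more whose 95% counting interval leaves out 1, in a gene that has 1 CPM or more in whichever library is higher. Fewer cells of a type and less RNA per cell cannot be told apart in such bulk libraries.

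Promoter sequences are shown for 3 of the 6 members found by symbol in the RefSeq table of build GRCm38.p6, chosen after their values were seen: Vcan, lower at 8 and 16 h, and Hspg2 and Sdc1, higher there. None of these 3 met the rule of size, and Dcn, Lum, Gpc1 and Sdc2 were not found there. Each run is on the gene's own strand, 5′ to 3′, and ends where the GENCODE or the RefSeq annotation first starts the gene. Capitals mark the GC box GGGCGG, searched on both strands. The Vcan run covers chr13:89742513-89742762 on the minus strand, the Hspg2 run chr4:137468553-137468768 on the plus strand and the Sdc1 run chr12:8771146-8771322 on the plus strand.
Vcan: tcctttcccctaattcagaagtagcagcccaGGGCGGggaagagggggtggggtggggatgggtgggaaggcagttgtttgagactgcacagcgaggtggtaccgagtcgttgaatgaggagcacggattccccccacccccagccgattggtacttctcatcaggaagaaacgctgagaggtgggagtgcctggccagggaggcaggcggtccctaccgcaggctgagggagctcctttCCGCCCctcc
Hspg2: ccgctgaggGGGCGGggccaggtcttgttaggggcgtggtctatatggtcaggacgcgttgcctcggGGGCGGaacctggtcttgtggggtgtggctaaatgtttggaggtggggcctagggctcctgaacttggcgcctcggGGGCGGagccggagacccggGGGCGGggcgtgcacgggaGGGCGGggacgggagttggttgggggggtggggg
Sdc1: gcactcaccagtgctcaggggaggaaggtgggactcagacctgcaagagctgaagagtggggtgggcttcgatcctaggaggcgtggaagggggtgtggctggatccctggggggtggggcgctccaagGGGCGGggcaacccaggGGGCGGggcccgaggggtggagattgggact
In the 250 bases before the RefSeq start, the Vcan window held 2 GC boxes, the Hspg2 window 5 and the Sdc1 window 3, of which 1 lies beyond the printed run. At least 1 such match was found in 32.7% of the 32851 windows of that length in the table. None of the 3 windows matched the TATA box TATAAA, the AP-1 site TGACTCA, the EGR site GCGNGGGCG or the E-box CACGTG, again on both strands, which matched in 12.4%, 4.46%, 4.70% and 6.02% of all windows. G and C made up 62.4% of the Vcan window, 70.0% of the Hspg2 window and 66.0% of the Sdc1 window, against a median of 52.4% over all windows. Of the matched members not shown, the Bgn window held 3 GC boxes, the Sdc4 window 4 and the Fmod window 0. Their G and C shares were 64.4%, 68.0% and 51.2%. These matches are a description of letters and say nothing of binding.

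Hspg2 encodes perlecan, the large heparan sulfate proteoglycan of basement membranes (chromosome 4, 137468769 to 137570630, plus strand, mm10). It had the highest level of the 10 per exon length in every library, from 31109 reads in the no LPS library and 38018, 36181 and 32603 in those of 8, 16 and 20 h, which is 1101, 1324, 1306 and 1177 CPM. The 8 and 16 h libraries stood highest, no LPS lowest, and 20 h between them. The fold was 1.20 at 8 h (1.185 to 1.22), 1.19 at 16 h (1.17 to 1.205) and 1.07 at 20 h (1.05 to 1.09) against no LPS, none of which met the rule of size.

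Vcan encodes versican, a chondroitin sulfate proteoglycan that binds hyaluronan and is known to build up in inflamed lung (chromosome 13, 89655312 to 89742509, minus strand). Its levels were 645 CPM in the no LPS library and 377, 388 and 626 in the 8, 16 and 20 h libraries, from 18218, 10827, 10735 and 17325 reads. The 8 and 16 h libraries were low and close to each other, and no LPS and 20 h were high. Vcan was 1.71-fold lower at 8 h (1.67 to 1.75) and 1.66-fold lower at 16 h (1.62 to 1.70) than with no LPS, short of the fold of 2 that the rule asks for. At 20 h it was 1.03-fold lower (1.01 to 1.05). An annotated antisense gene that overlaps Vcan, Gm4117, had 135, 74, 75 and 152 reads in the same order. How the counting treated strand was not given in the sources used here. Reads of this pair therefore cannot be assigned with certainty, and Gm4117 had far fewer of them than Vcan in each library.

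Dcn encodes decorin, a small leucine-rich proteoglycan that binds collagen fibrils and transforming growth factor beta (chromosome 10, 97479609 to 97518143, plus strand). It had 268 reads in the no LPS library and 85, 95 and 214 in the 8, 16 and 20 h libraries, which is 9.48, 2.96, 3.43 and 7.73 CPM. No LPS and 20 h were high, and both middle labels were low. Dcn was called lower at 8 h, 3.20-fold (2.50 to 4.14), and at 16 h, 2.77-fold (2.18 to 3.53), against no LPS, and it was called higher at 20 h against 16 h, 2.25-fold (1.76 to 2.90). At 20 h it was 1.23-fold lower than with no LPS (1.02 to 1.48) and not called. Over all 4 libraries its log2 CPM spanned 1.66, more than 96.2% of measured genes, whose median span was 0.37.

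The share of mitochondrial reads and several marker lists also separated the 8 and 16 h libraries from the other pair. Mitochondrially encoded genes took 1.80% of reads in the no LPS library and 1.36%, 1.40% and 1.90% in the 8, 16 and 20 h libraries, and the listed genes of RNA quality summed to 24530, 18890, 19310 and 25260 CPM. Col3a1, a fibrillar collagen gene of fibroblasts, stood at 168, 81.8, 83.2 and 163 CPM, while Col1a1 had at most 4 reads. For the fibroblast list 7 of 15 genes were measured, and Tcf21 and Mfap4 were at 0. Its summed level went the other way: 540 CPM with no LPS and 609, 620 and 546 at 8, 16 and 20 h. The median level of its genes did not, at 0.814 CPM with no LPS and 0.383, 0.469 and 0.686 in the same order. The median log2 ratio of the measured ones against no LPS was 0.16 at 8 h and 0.21 at 16 h. Gsn, which encodes the actin-severing protein gelsolin, stood at 214 CPM at 8 and 16 h against 76.3 CPM with no LPS. That is a larger difference in CPM than the sum itself showed. Prrx1 and Pdgfra were not called. By the rule of size Gsn, Npnt and Fbln1 were higher and Col3a1 was lower at 8 h. At 16 h Gsn and Npnt were higher and Col3a1 was lower. The epithelial list, with 2 of 10 measured and Sftpb at 0, summed to 52.4, 124, 126 and 52.9 CPM, nearly all of it from the keratin genes Krt8 and Krt18. Leukocyte genes, with 6 of 12 measured and Cd3e and Nkg7 at 0, summed to 125, 92.8, 92.1 and 126.5 CPM. Most of that sum was Cd68, at 99.7, 66.5, 62.0 and 96.6 CPM, which was not called. Of the other leukocyte genes, the macrophage gene Adgre1 was called higher at 8 h (2.54-fold) and 16 h (6.55-fold) against no LPS. The macrophage gene Csf1r was called higher at 16 h (3.40-fold), and both were also called higher at 16 h against 8 h. At 20 h Csf1r was 2.95-fold over no LPS, not called because it was at 0.939 CPM. The neutrophil gene S100a8 was called lower at 8 and 16 h, at 0.209 and 0.253 CPM against 1.20 CPM with no LPS. From no LPS to 20 h these calls rest on few reads: 12, 31, 77 and 24 for Adgre1, 9, 15, 30 and 26 for Csf1r, and 34, 6, 7 and 25 for S100a8. Adgre1 reached 1 CPM only at 8 and 16 h, Csf1r only at 16 h and S100a8 only with no LPS. Each was thus measured only where it is high, and the calls are not a result about leukocytes. Endothelial genes summed to 58.4 to 62.7 CPM, but only 2 of the 15 were measured and their median level was 0 to 0.0361 CPM. Smooth muscle and pericyte genes summed to 6.44 to 9.09 CPM, mesothelial genes to 4.78 to 7.00 and erythroid and platelet genes to 3.79 to 5.05. The part of cell makeup and RNA quality in the Dcn and Vcan differences was not tested.

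Bgn encodes biglycan, the close relative of decorin on the X chromosome (73483602 to 73495933, plus strand). It had 8.17 CPM in the no LPS library and 7.18, 6.57 and 7.51 in the 8, 16 and 20 h libraries, from 182 to 231 reads. These levels lay close together, with the lowest at 16 h, where Bgn was 1.24-fold lower than with no LPS (1.02 to 1.52). The other folds against no LPS, 1.14-fold lower at 8 h (0.940 to 1.38) and 1.09-fold lower at 20 h (0.898 to 1.32), had intervals that included 1.

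Lum and Fmod encode lumican and fibromodulin, leucine-rich proteoglycans that carry keratan sulfate and regulate the width of collagen fibrils. Lum (chromosome 10, 97565128 to 97572703, plus strand) had 3, 3, 4 and 3 reads in the 4 libraries, and Fmod (chromosome 1, 134037254 to 134048277, plus strand) had 0 in each. Fmod thus lay below the 3-read floor of 0.104 to 0.108 CPM, with exact Poisson 95% upper limits of 0.1285 to 0.1332 CPM. Lum stood at 0.104 to 0.144 CPM. Lum starts 46984 bases beyond the end of Dcn on the same strand, and Dcn had 85 to 268 reads in the libraries where Lum had 3 or 4.

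**Figure D1:**
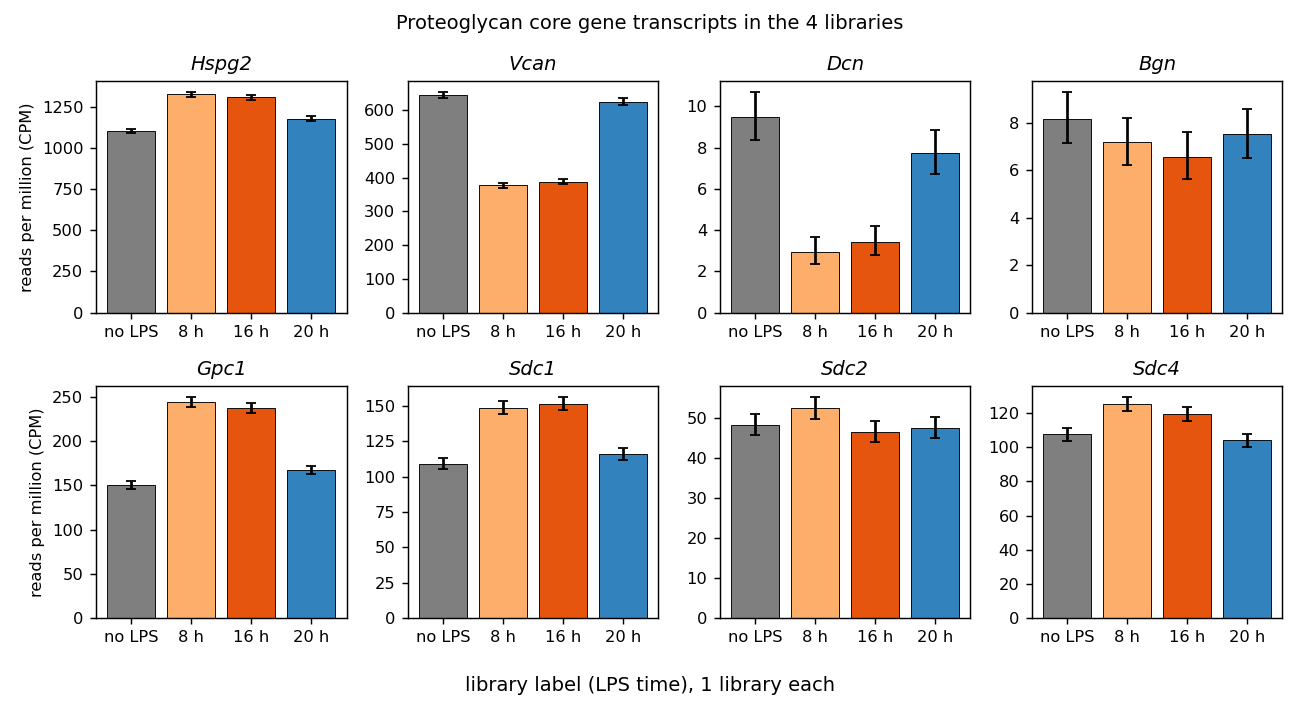
Level of each of the 8 measured members in CPM (vertical axis, starting at 0 in each panel) by label, from no LPS on the left to 20 h on the right, 1 library each; bars are the values and whiskers exact Poisson 95% intervals. Vcan and Dcn are low at 8 and 16 h, and Hspg2, Gpc1, Sdc1 and Sdc4 are higher there. Hspg2, Sdc4, Bgn and Sdc2 all differ little: each spans less on the log2 scale than the median measured gene, 0.37.

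Gpc1 encodes glypican-1, a heparan sulfate proteoglycan held in the membrane by a lipid anchor and found on vascular cells (chromosome 1, 92831645 to 92860779, plus strand). It had 151 CPM in the no LPS library and 244, 238 and 168 in the 8, 16 and 20 h libraries, from 4265, 7004, 6582 and 4642 reads. Both middle labels were high and differed from each other by less than their counting error, with a fold of 0.974 at 16 h over 8 h (0.941 to 1.01). Gpc1 was 1.62-fold higher at 8 h (1.56 to 1.68), 1.57-fold higher at 16 h (1.515 to 1.64) and 1.11-fold higher at 20 h (1.065 to 1.16) than with no LPS, and was not called. Ankmy1, a gene that overlaps it, had at most 7 reads.

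Syndecans span the membrane with a short conserved tail inside the cell. Sdc1, the syndecan of epithelia and plasma cells that is measured in blood as a sign of glycocalyx shedding (chromosome 12, 8771323 to 8793715, plus strand), had 109 CPM in the no LPS library and 149, 152 and 116 in the 8, 16 and 20 h libraries. Its 2 middle libraries were high, and it was 1.37-fold higher at 8 h (1.30 to 1.43), 1.39-fold at 16 h (1.33 to 1.46) and 1.07-fold at 20 h (1.01 to 1.12) than with no LPS. Sdc4, a syndecan of focal adhesions (chromosome 2, 164424247 to 164443887, minus strand), had 108, 125, 120 and 104 CPM in the same order. It was thus highest at 8 h, at 1.16-fold (1.11 to 1.22), then 16 h, at 1.11-fold (1.06 to 1.17), while 20 h was 1.03-fold lower than no LPS with an interval that included 1 (0.982 to 1.09).

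Sdc2, a syndecan of mesenchymal and vascular cells (chromosome 15, 32920723 to 33034935, plus strand), had 48.4 CPM in the no LPS library and 52.5, 46.6 and 47.7 in the 8, 16 and 20 h libraries. Only at 8 h did it stand apart from no LPS beyond counting error, at 1.09-fold (1.01 to 1.17), and at 16 h it was 1.13-fold lower than at 8 h (1.045 to 1.21). Its span over the libraries, 0.17 on the log2 scale, exceeded that of 19.0% of measured genes, the smallest among the 8. By the same measure Vcan stood above 81.2% of measured genes, Gpc1 above 77.4% and Sdc1 above 61.4%, and Bgn, Hspg2 and Sdc4 between 34.7% and 41.9%.

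**Figure D2:**
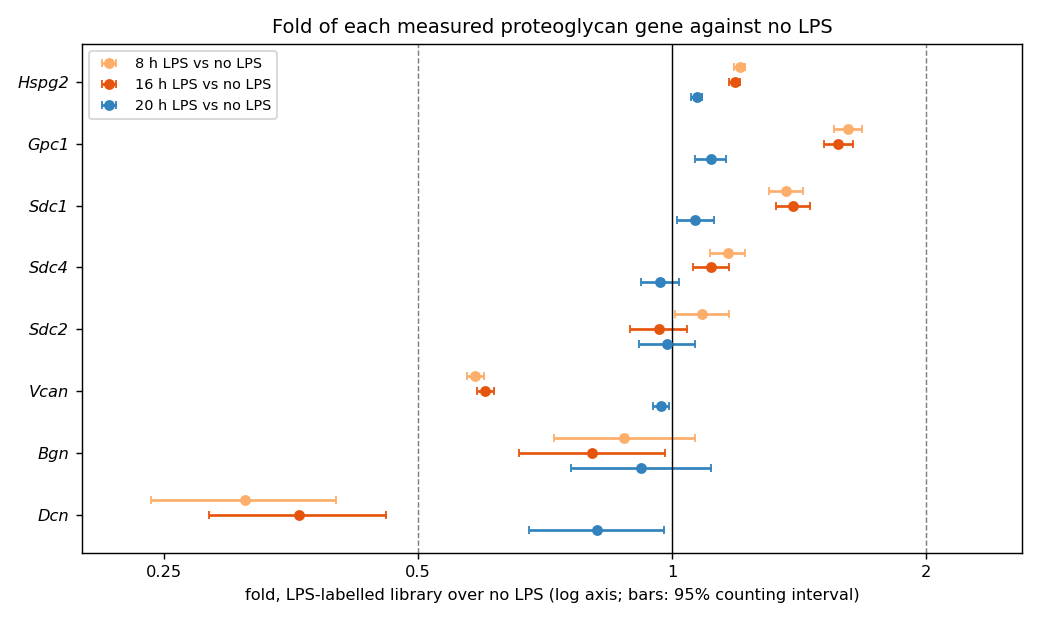
Fold of each measured member in the 8 h, 16 h and 20 h libraries over no LPS (horizontal log axis), with the 95% counting interval as bars; the solid line is no difference and the dashed lines are a fold of 2 either way. Dcn alone passes a dashed line, at 8 and 16 h, and the 20 h points lie near 1. All 3 folds of a gene share the no LPS library.

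By the rule of size, 1 of the 10 members, Dcn, was called lower at 8 h and 9 were not called, while 4.13% of the 11803 measured genes were called lower, 4.19% higher and 8.31% in either direction. At 16 h against no LPS the count was again 1 lower, Dcn, where 4.09% of measured genes were lower, 4.13% higher and 8.23% called. A single gene among 8 measured does not set the members apart from these shares. None of the 10 was called at 20 h against no LPS (0.652% of measured genes) or at 16 h against 8 h (0.237%), and Dcn alone was higher at 20 h against 16 h, where 4.63% of measured genes were higher, 3.85% lower and 8.47% called. With a fold of 1.5 in place of 2, Gpc1 was higher and Dcn and Vcan were lower at 8 h, beside 10.4% and 9.41% of measured genes (19.9% in all), and likewise at 16 h, beside 10.6% and 9.4% (20.0% in all). At 20 h against 16 h that fold called Dcn and Vcan higher, beside 10.6% of measured genes (20.7% in all), and it called no member at 20 h against no LPS (2.0%) or at 16 h against 8 h (0.779%). The comparisons with no LPS share that library and those with 16 h share the 16 h library, so they are not independent of each other. The median log2 ratio of the 8 measured members was 0.17 at 8 h, 0.05 at 16 h and -0.03 at 20 h, against 0.00, 0.01 and 0.00 over all measured genes.

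Several members are deeply counted, which narrows their intervals. The counting interval excluded 1 for 7 of the 8 measured members at 8 h, 5 higher and 2 lower, and for 7 at 16 h, 4 higher and 3 lower. Of all measured genes 70.3% had such an interval at 8 h, 35.4% higher and 34.8% lower, and 70.9% at 16 h, 35.8% higher and 35.1% lower. At 20 h against no LPS it was 5 of 8 members, 3 higher and 2 lower, with 26.5% of all measured genes (14.7% higher and 11.9% lower), and at 16 h against 8 h it was 2 of 8, Vcan at 1.03-fold higher and Sdc2 lower, with 10.6% of all (5.31% higher and 5.29% lower). At 20 h against 16 h it was 6 of 8, 2 higher and 4 lower, with 71.4% of all (36.6% higher and 34.7% lower). In each of these comparisons the members' share was above that of the table, a difference that was not tested.

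A straight line over the label hours was the one model tested across the 4 libraries, with 2 residual degrees of freedom. None of the 8 measured members had an adjusted p under 0.05 in edgeR's quasi-likelihood test, and the smallest unadjusted p was 0.546, for Bgn. Over all 11803 genes the count was also 0, with 43 at an unadjusted p under 0.05, and DESeq2 gave 0 as well. The fitted change over 20 h was largest for Dcn, at -0.42 on the log2 scale (adjusted p = 1). In Dcn, Vcan, Hspg2, Gpc1, Sdc1 and Sdc4 the no LPS and 20 h levels lay closer to each other than to those of 8 and 16 h. A straight line does not follow this shape. The libraries as a whole split the same way, so it is not particular to these members.

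Levels of different genes were compared per length, as RPKM, which divides the CPM by the annotated exon length in kilobases. With no LPS the order was Hspg2 at 76.9 RPKM, Vcan at 44.6, Sdc4 at 42.2, Gpc1 at 29.3, Sdc1 at 28.6, Sdc2 at 13.7, Dcn at 1.62 and Bgn at 1.34. The counting intervals of Gpc1 and Sdc1 overlapped, as did those of Dcn and Bgn. At 8 h Vcan, at 26.1 RPKM, ranked 5, behind Hspg2 at 92.6, Sdc4 at 49.2, Gpc1 at 47.3 and Sdc1 at 39.1, with overlapping intervals for Sdc4 and Gpc1 there and at 16 h. The order at 16 h was the same as at 8 h, and that at 20 h the same as with no LPS, with Vcan at 43.3 RPKM and again overlapping intervals for Dcn and Bgn. Dcn, at 0.507 RPKM at 8 h, stood below Bgn, at 1.18. Lengths from the longest transcript in place of all exons kept Vcan in its places but put Bgn above Dcn with no LPS, at 3.07 against 2.02 RPKM, and at 20 h, at 2.82 against 1.65. The same lengths put Gpc1 above Sdc4 at 8 h, at 58.4 against 50.9 RPKM, and at 16 h, at 56.9 against 48.65.

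**Figure D3:**
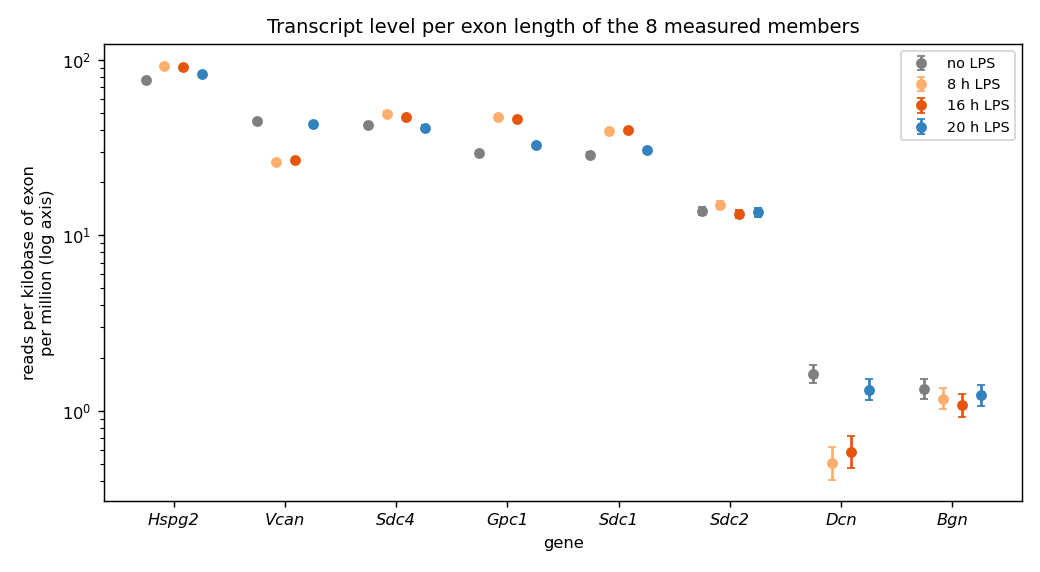
Level per exon length of the 8 measured members (vertical log axis, RPKM) in each library, with exact Poisson 95% intervals, which are smaller than most points. Vcan ranks 5 at 8 and 16 h and 2 in the other libraries, and Dcn and Bgn lie below all other members shown.

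The members together took 0.220% of reads in the no LPS library and 0.227%, 0.225% and 0.226% in the 8, 16 and 20 h libraries, so their total in reads hardly differed while its makeup did. Per length they summed to 238.3, 270.8, 265.8 and 245.5 RPKM in the same order, which is higher at 8 and 16 h. Vcan supplied 29.6% of the members' reads in the no LPS library (exact binomial 95% interval 29.2% to 29.95%) and 16.5% (16.2% to 16.8%), 17.2% (16.9% to 17.45%) and 27.8% (27.4% to 28.1%) in the 8, 16 and 20 h libraries. Hspg2 supplied 50.5%, 58.0%, 57.8% and 52.2%, and Gpc1 6.93%, 10.7%, 10.5% and 7.44%. Per length, core proteins that mainly carry heparan sulfate (Hspg2, Gpc1, Sdc1, Sdc2 and Sdc4) summed to 190.7 RPKM in the no LPS library and 243, 237 and 199.6 in the 8, 16 and 20 h libraries. Those that mainly carry chondroitin or dermatan sulfate (Dcn, Bgn and Vcan) summed to 47.5, 27.8, 28.45 and 45.8 RPKM, of which Vcan was 93.8% to 94.4%. The ratio of these sums was 4.01 in the no LPS library and 8.75, 8.34 and 4.36 in the 8, 16 and 20 h libraries, and it compares transcripts, not sugar chains. Among the syndecans, Sdc1 had 33.8%, 37.9%, 39.8% and 35.9% of the summed RPKM in the same order, and Sdc2 16.2%, 14.4%, 13.2% and 15.9%.

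Related genes came from 13 lists of proteoglycans and of the enzymes that build, edit and cut them, 174 names in all, of which 107 were measured. At 8 h 7 of these were called higher and 6 lower, at 16 h 10 higher and 9 lower, and at 20 h 1 higher and none lower against no LPS. These are 12.15%, 17.8% and 0.935% of the measured list genes, beside 8.31%, 8.23% and 0.652% of all measured genes. Between successive labels 1 was called higher at 16 h against 8 h, Mmp9, and 17 at 20 h against 16 h, 9 of them higher. These are 0.935% and 15.9% of the measured list genes, beside 0.237% and 8.47% of all measured genes. Mmp9 alone makes up both shares of 0.935%. It reached 1 CPM only in the 16 and 20 h libraries, where it is high, so neither share is a result about the lists. Ogn, Podn and Has3 reached 1 CPM only in the no LPS and 20 h libraries, and Has2 only in those of 8 and 16 h. Each of these was thus measured only through libraries where it is high. The other shares count such genes and are not a result about the lists either.

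Of the other small leucine-rich proteoglycans, 4 of 13 were measured. Ogn, which encodes osteoglycin, was lower at 8 and 16 h, at 0.731 and 0.5775 CPM against 1.56 CPM with no LPS, and Podnl1 was higher, at 11.0 and 11.95 CPM against 5.17 CPM. Podn was lower at 16 h alone, at 0.758 CPM against 1.63 CPM, and Tsku, at 56.15 and 54.5 CPM against 70.1 CPM, was not called. The other matrix proteoglycans had 3 of 14 measured and none called: Col18a1, the basement membrane collagen that carries heparan sulfate, stood at 757 CPM at 8 h and 730 at 16 h against 1087 CPM with no LPS, Agrn, which encodes agrin, at 149.9 and 142 against 129.8 CPM, and Smoc1 at 14.1 and 14.0 against 17.7 CPM. Col18a1 and Hspg2, both of basement membranes, thus stood on opposite sides of no LPS at 8 h, at folds of 0.696 and 1.20. The other glypicans and syndecan-3 had 2 of 6 measured, Gpc6 at 7.04 and Gpc4 at 1.66 CPM with no LPS, and no call in any comparison.

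Hyaluronan genes, which include the partners of versican, had 10 of 21 names measured, with 1 higher and 2 lower at 8 h and 2 of each at 16 h. Has3, a hyaluronan synthase gene, was lower at 8 h, at 0.697 CPM, and at 16 h, at 0.505 CPM, against 3.57 CPM with no LPS. Hyal1, which encodes a lysosomal hyaluronidase, was lower at 5.57 and 5.85 CPM against 12.5 CPM. Has2, another synthase gene, was higher at 16 h, at 2.20 CPM against 0.991 CPM. Hmmr, which encodes a hyaluronan receptor that also acts in the mitotic spindle, was higher at 77.5 and 78.5 CPM against 30.15 CPM. Other cell surface and part-time proteoglycans had 7 of 9 measured: Nrp1, a co-receptor of VEGF, was higher at 8 h (2.80-fold) and 16 h (2.54-fold), Cspg5 was lower, at 1.43 and 1.08 CPM against 2.97 CPM, and neither Thbd, at 1.93-fold and 1.90-fold, nor Cd74 was called.

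In the linker list, whose products join the chain to the core protein, 6 of 7 were measured and none was called against no LPS, with B3galt6 at 4.56 CPM at 8 h and 4.15 at 16 h against 7.501 CPM with no LPS, and Pxylp1, Xylt2 and B4galt7 at folds of 1.64, 0.841 and 0.7755 at 8 h. Heparan sulfate synthesis had 1 of 13 measured genes higher at 8 h and 1 higher and 1 lower at 16 h. Ndst3, an N-deacetylase and N-sulfotransferase of these chains, was higher at 29.05 CPM at 8 h and 28.4 at 16 h against 13.5 CPM, Extl1 was lower at 16 h at 2.09 CPM against 4.25 CPM, and Extl2 and Ndst2 were not called. Chondroitin and dermatan sulfate synthesis had 1 of 12 higher at 8 h and 2 at 16 h: Chst11, a chondroitin 4-O-sulfotransferase, at 73.0 and 73.4 CPM against 32.0 CPM, and at 16 h Chst15, at 2.38 CPM against 1.03 CPM, while Chst14 and Chpf were not called. The keratan sulfate list had 1 of 4 higher at both labels, the sulfotransferase gene Chst1 at 4.03-fold and 4.025-fold, and Chst2, Chst5 and B4galt1 were not called. In the supply of sulfate donors and sugar nucleotides 0 of 12 were called, with Ugdh, which makes the glucuronic acid donor, at a fold of 1.385 at 8 h, Slc35d2 at 0.680 and Gfpt1 at 0.752, and Gfpt2 at 5.19 against 3.47 CPM.

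Of the genes of chain degradation, 2 of 16 measured were called lower at 8 h and 3 at 16 h against no LPS, and none higher. The same 3 were called higher at 20 h against 16 h, a comparison that reuses the 16 h library. They were Hgsnat, a lysosomal acetyltransferase needed to break down heparan sulfate, at 46.1 and 45.9 CPM against 93.9 CPM with no LPS, the sulfatase gene Arsg at 1.60 and 1.77 against 4.25 CPM, and at 16 h Hpse, which encodes heparanase, at 3.72 against 8.14 CPM. Naglu, another lysosomal enzyme gene of heparan sulfate, had 31.0 and 28.7 against 52.5 CPM and was not called. Among 11 measured genes of proteases and sheddases, Pcolce, an enhancer of procollagen processing, was higher at 2.96-fold at 8 and 16 h. Mmp9 was higher at 16 h, at 1.23 against 0.460 CPM, and at 20 h, at 1.19 CPM, and was the sole list gene called at 20 h against no LPS. It reached 1 CPM only in the 16 and 20 h libraries, where it is high, and had 0.557 CPM at 8 h. Htra1 and Adamts1, a protease that cuts versican, were not called, at folds of 0.551 and 0.626 at 8 h. None of the 7 measured partners of syndecans and glypicans was called, with Ezr, which encodes ezrin, at folds of 1.68 at 8 h and 1.67 at 16 h, and Sdcbp2, Gipc1 and Cask at 0.679, 0.938 and 0.8555 at 8 h.

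**Figure D4:**
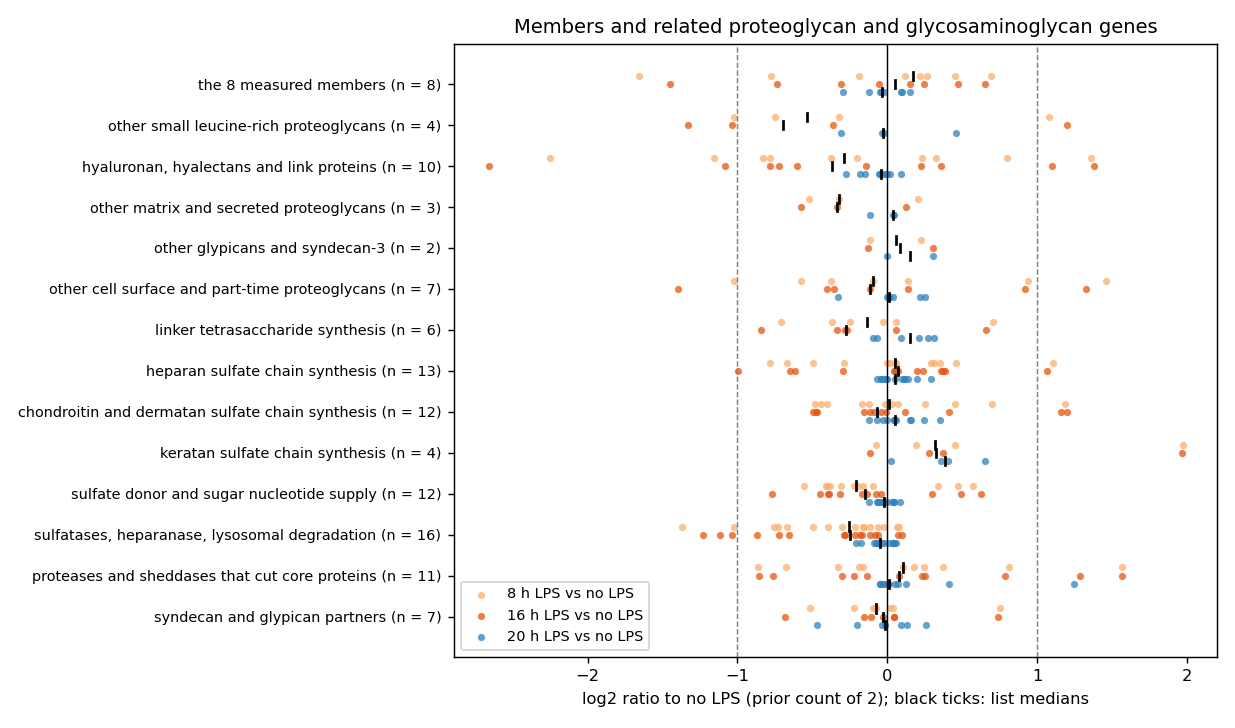
Log2 ratio to no LPS (horizontal axis) of the 8 measured members and of the 107 measured genes of the 13 related lists, 1 point per gene and label; black ticks are list medians and dashed lines a fold of 2. The 20 h points lie mostly near 0, and the 8 h and 16 h points of a list lie close to each other.

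The genes whose pattern was most like that of Dcn, the member with the widest span, were sought among 8731 protein-coding genes of at least 10 CPM on average, by the root mean square difference of log2 CPM centred on each gene's own mean over the 4 libraries. They were mt-Nd6 (difference 0.0505), Clec2d (0.0826), Cfap69 (0.0862), Fam120c (0.1004) and Trp53inp1 (0.104). The closest, mt-Nd6, is also among the listed genes of RNA quality. It was called lower at 8 h (fold 0.343) and 16 h (0.372) against no LPS, and higher at 20 h against 16 h (2.37). No other measured gene of that list was called in these comparisons. Trp53inp1 had 203 CPM in the no LPS library and 76.3, 75.8 and 189 CPM in those of 8, 16 and 20 h, and mt-Nd6 had 38.1, 13.1, 14.2 and 33.6 CPM. With 4 points from the same libraries this likeness is a description.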

How the data were processed

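RNA was measured in 4 libraries, 1 per label. The authors deposited raw counts of reads per gene, made with STAR and featureCounts on mm10, per the submitters' processing notes; versions, annotation, strand handling and the treatment of multiply mapped reads were not given in the sources used here. Columns were matched to samples by title. Symbols, coordinates and exon lengths came from GENCODE M21 of the same build, in which 99.5% of identifiers matched. Counts were scaled with edgeR 4.0.16 TMM factors (R 4.3.3) over all 4 libraries. Fold intervals are exact conditional binomial (Clopper-Pearson) 95% intervals on the scaled totals, computed with scipy 1.17.1. Level intervals are exact Poisson, and log2 ratios used a prior count of 2. Without molecular identifiers in the reads, these intervals and the 3-read floor cover counting error only. The trend used glmQLFit and glmQLFTest with Benjamini-Hochberg adjustment, on measured genes (1 CPM or more in some library), and DESeq2 1.42.0 as an alternative. The call rule and trend were tested on simulated data. In each related list the named genes are up to 4 measured ones with the widest span of log2 CPM. A further list of 8 marker genes, all members and the 5 genes most like Dcn were also named, and Krt8 and Krt18, the overlapping genes and the further markers were named after their values were seen. Members and lists were chosen with earlier results of these data known. A further time in the protocol is not analysed here.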

Additional observations from a re-analysis of the deposited data

How the results depend on the processing

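The members called, 1 at 8 h, 1 at 16 h and 0 at 20 h against no LPS, 0 at 16 h against 8 h and 1 at 20 h against 16 h, were the same with scaling by total counts, DESeq2 size factors or upper quartiles, without a minimum level and with a stricter counting interval. With a minimum of 10 CPM, which Dcn does not reach, or a fold threshold of 4 the counts were 0 in every pair. With a fold threshold of 1.5 they were 3 at 8 h and 3 at 16 h against no LPS (Dcn and Vcan lower, Gpc1 higher) and 2 at 20 h against 16 h (Dcn and Vcan higher), beside 19.9%, 20.0% and 20.7% of measured genes. Of 120 member folds under another scaling 119 stayed within their counting interval and none of the called ones changed direction; the exception was Hspg2 at 20 h against no LPS, 1.05 with upper quartiles. Under the other scalings the counts over the related lists stayed within 1.5 times. The ratio of heparan sulfate to chondroitin or dermatan sulfate core transcripts became 3.61, 7.86, 7.53 and 3.94 with longest transcript lengths. The trend called 0 members under each alternative and with each library left out in turn (0 to 0), but it called 0 of all genes in each of these fits too, with 1 or 2 residual degrees of freedom, so this says nothing about stability. Without 20 h 4 of the 8 measured members and 2110 of 11716 genes had an unadjusted p under 0.05, and without no LPS 2 members and 540 of 11721 genes did. No paired analysis was possible because each label has 1 library. Depth limits statements on Lum and Fmod, and Dcn and Bgn rest on 85 to 268 reads.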
